A study of Mus musculus with 6 samples.

Results

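The genes described are the mouse genes whose symbols name them as proteasome components: subunits of the 20S core particle, subunits of the 19S regulatory particle, activators, an inhibitor and assembly chaperones. They were found by symbol, as probe sets that the platform annotation assigns to a single gene with a symbol starting Psma to Psmg and a number, and each gene was represented by the probe set with the highest mean log2 signal over the 4 arrays of shRNA-treated cells. This gave 49 of the 18194 genes with such a probe set, from 103 matching probe sets. Psmc3ip, a meiotic recombination factor, and Psme3ip1, a partner of the activator Psme3, match by name only and are not subunits. This leaves 47 genes named for a proteasome role. Psmc3ip and Psme3ip1 are kept in the counts below, so the 47 genes tested there are a different 47. Psme2, a subunit of the same activator as Psme1, is measured on the array by a probe set that also names Psme2b, so it is not among the 49.

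The cells were elongating spermatids, the haploid germ cells that condense their nuclei and build a tail, of ICR mice of wild-type genotype. Testes of 5-week-old males were transduced with a lentiviral vector that also encodes GFP, and elongating spermatids positive for GFP were sorted out 1 week later. The vectors were shMiwi:GFP, a short hairpin RNA against Miwi (Piwil1, a germ cell PIWI protein that binds piRNAs), shCaf1:GFP, a hairpin against Caf1 (listed as a synonym of Cnot7, a deadenylase, in the RefSeq gene table), and the control vector pSilencer:GFP. Each group has 2 Affymetrix arrays that the labels call biological replicates, 6 in all. The labels do not say how many animals each array stands for, nor which promoter drives the hairpins, and no group carries another allele or agent.

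The proteasome degrades proteins marked with ubiquitin. In its 20S core, rings of alpha subunits gate a chamber of beta rings in which Psmb5, Psmb6 and Psmb7 cut, and the 19S particle binds ubiquitin, unfolds the substrate with a ring of ATPases and feeds it into the core. Male germ cells of the mouse carry a modified form, in which Psma8 takes the place of the alpha subunit Psma7 and Psme4 (PA200) caps the core and is known for the removal of acetylated histones in spermatids.

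Piwil1 had signals of 9780 and 10392 in shMiwi spermatids, 21881 and 22443 in shCaf1 spermatids, and 1445360 and 292542 in control spermatids. Cnot7 had signals of 4365 and 5012 in shMiwi, 3633 and 4330 in shCaf1, and 2003570 and 188877 in control spermatids. Piwil1 was lower in shMiwi than in shCaf1 cells (log2 difference -1.14, limma, adjusted p = 0.00105), and Cnot7 differed between them by 0.24 (adjusted p = 0.307). The control arrays stand apart from the others: relative to the geometric mean over the 4 shRNA arrays, the deposited signals of the spiked hybridization controls were 0.81 to 1.20 times on the shRNA arrays and 82.3 and 16.2 times on the control arrays, and every array has the same trimmed mean of 500 in the deposited signals. The 100 brightest probe sets held 5.86% to 7.29% of all signal on the shRNA arrays and 56.4% and 30.4% on the control arrays. The ratio of the 3' to the 5' probe set of Actb, a sign of RNA quality, was 2.05 and 3.01 in shMiwi, 2.87 and 4.69 in shCaf1, and 0.691 and 14.5 in control spermatids, and that of Gapdh was 0.811 and 1.0 in shMiwi, 1.06 and 1.73 in shCaf1, and 0.723 and 5.11 in control spermatids. The part of these values in the comparisons below was not tested. On control replicate 1 the markers of the labelled cell type are nearly absent, with signals of 66.1 for Prm1, 110 for Prm2, 38.9 for Tnp1 and 19.6 for Tnp2, and the summed signal of 10 elongating spermatid markers was 126453 and 117939 in shMiwi, 175915 and 190232 in shCaf1, and 2835 and 672976 in control spermatids. Over the tested proteasome genes, the median difference between replicates was 0.18 in shMiwi, 0.12 in shCaf1 and 1.32 in control on the log2 scale. Comparisons with control are therefore given by array, and in bulk samples of this kind fewer cells of a type and less RNA per cell cannot be told apart.

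Across the proteasome genes, the 4 shRNA arrays gave closely similar signals. Of the 49 genes, 47 passed the filter on low signals, and none of these differed 2-fold between shMiwi and shCaf1 spermatids. These 47 include Psmc3ip and Psme3ip1, which match by name only. Of all tested probe sets, 1.2% were at least 2-fold higher in shMiwi with no overlap and 1.32% were lower. The absence of such genes among the 47 is thus near the background. The log2 differences, shMiwi minus shCaf1, ran from -0.55 (Psmb7) to 0.51 (Psme1), with a median of -0.07, against a median of 0.02 over all 27022 tested probe sets. The 2 genes that did not pass the filter were Psmb8, a beta subunit of the interferon-induced immunoproteasome, with signals of 58.9 and 62.3 in shMiwi, 17.1 and 58.5 in shCaf1 and 63.2 and 432 in control spermatids, and Psmb11, the beta subunit of thymic epithelium, with signals of 3.87 and 9.52 in shMiwi, 28.5 and 39.1 in shCaf1 and 427 and 356 in control spermatids.

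**Figure D1:**
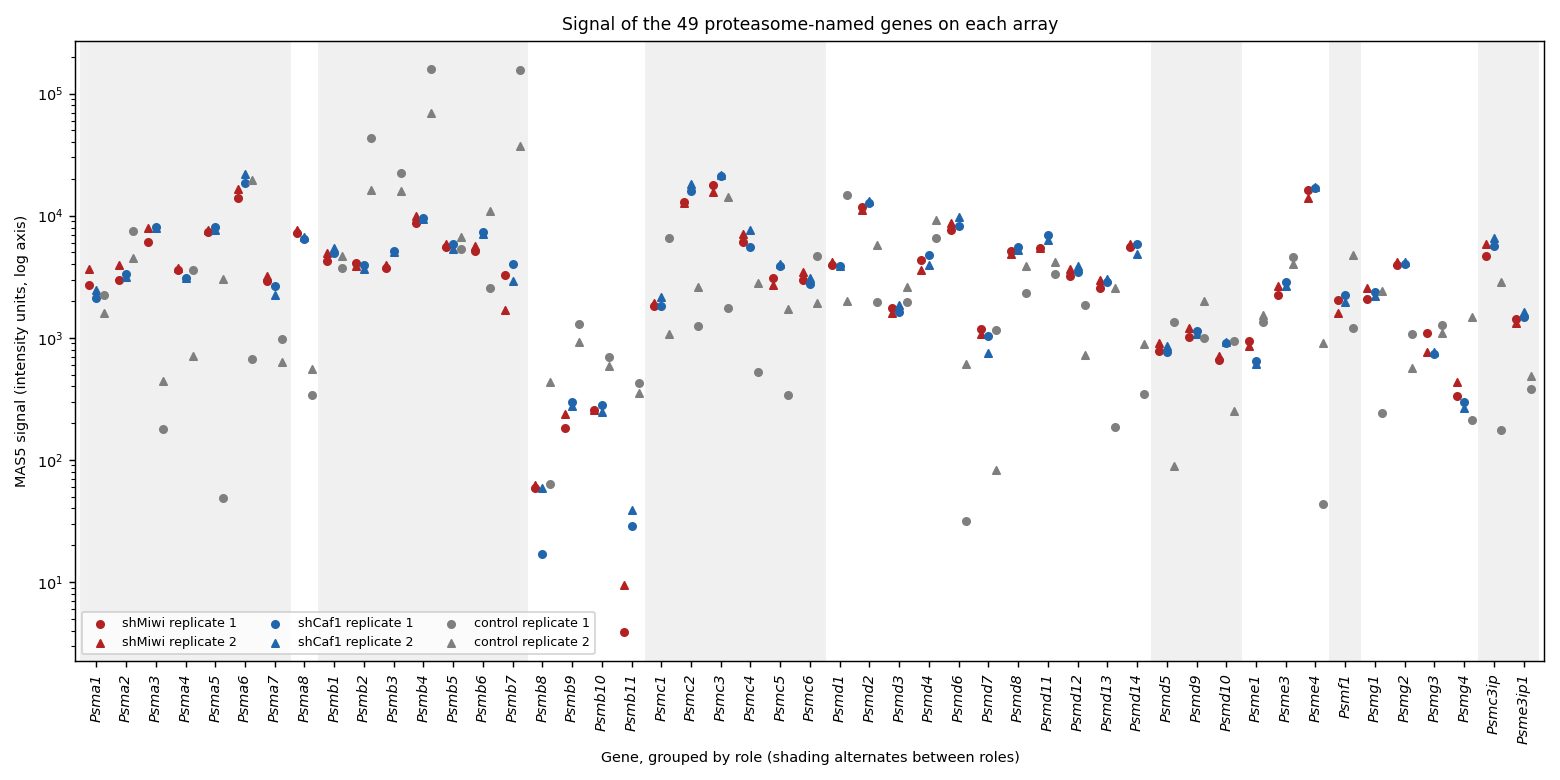
Deposited MAS5 signal (log axis) of each of the 49 genes on each array, with genes grouped by role, colours for shMiwi, shCaf1 and control, and circles and triangles for replicates 1 and 2. The shRNA arrays lie close together for most genes, and the control arrays lie apart from them and from each other, as for Psme4 at 43.4 and 901 in control spermatids.

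Between shMiwi and shCaf1 spermatids, 2 of the 47 tested genes passed the test, both lower in shMiwi: the 19S ATPase Psmc2 and the core subunit Psmb6, which carries the caspase-like site. By the same rule, 3.52% of all tested probe sets were lower in shMiwi and 3.81% were higher, so the share of proteasome genes called lower, 4.26%, is near the background, and 0 of 47 were called higher. At an unadjusted p under 0.05 in limma, 8 were lower and 3 were higher, against 11% and 13.4% of all tested probe sets. By sign alone 18 of the 47 were higher and 29 were lower, against 51.7% and 48.3% of all tested probe sets.

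Psmc2 had signals of 12973 and 12794 in shMiwi, 16030 and 18256 in shCaf1, and 1250 and 2601 in control spermatids. Both shMiwi arrays lay under both shCaf1 arrays, with a log2 difference of -0.41 (SE 0.10, adjusted p = 0.0464 in limma). The other probe set of the gene gave -0.27 (adjusted p = 0.139). Psmb6 had signals of 5159 and 5647 in shMiwi, 7415 and 7029 in shCaf1, and 2563 and 10906 in control spermatids. Its shMiwi arrays also lay under both shCaf1 arrays, and the control arrays lay on either side of them. The log2 difference was -0.42 (SE 0.11), with an adjusted p of 0.049997 that falls at the threshold. On the scale of the hybridization controls, which raises the median of all probe sets by 0.36 in this comparison, the differences of Psmc2 and Psmb6 were -0.01 and -0.02. Set against that median they lay at -0.39 and -0.40, close to the -0.43 and -0.44 they have against the median on the deposited scale. On the hybridization scale 9 of the 47 were called higher and 0 lower, where 26.4% of all probe sets were called. The calls of both genes were also lost with quantile normalization (-0.27 for Psmc2 and -0.37 for Psmb6) and with median centring (-0.39 and -0.40), with differences of the same sign. Without either shCaf1 array 0 genes were called, and the call of Psmc2 was lost whichever of the 4 arrays was left out and that of Psmb6 unless it was shMiwi replicate 2. In these fits the differences of Psmc2 ran from -0.50 to -0.31 and those of Psmb6 from -0.48 to -0.35, and the lone array of a group was assumed to vary like those of the other.

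The promoters of these 2 genes are shown because they are the ones called between the hairpins, with that of Psme4, which changed most against control. They come from RefSeq (GRCm38.p6), run from 250 bases before to 50 bases after the gene's start on the plus strand, and carry in capitals the matches to the motifs searched on both strands: CCAAT, bound by NF-Y, CCGGAAG, bound by ETS factors, TGACNNNGC, bound by Nfe2l1 and Nfe2l2, TGACGTCA, bound by the CREB and CREM family, and the palindromic motif of Nrf1 (nuclear respiratory factor). Psmc2 lies at chr5:21785025-21785324, Psmb6 at chr11:70525107-70525406 and Psme4 at chr11:30771525-30771824.
Psmc2: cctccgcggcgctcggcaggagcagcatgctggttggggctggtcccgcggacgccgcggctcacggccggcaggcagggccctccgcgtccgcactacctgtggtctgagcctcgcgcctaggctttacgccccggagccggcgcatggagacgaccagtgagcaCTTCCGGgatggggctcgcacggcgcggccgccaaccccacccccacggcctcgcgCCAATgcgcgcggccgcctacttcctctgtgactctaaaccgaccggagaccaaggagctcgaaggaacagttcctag
Psmb6: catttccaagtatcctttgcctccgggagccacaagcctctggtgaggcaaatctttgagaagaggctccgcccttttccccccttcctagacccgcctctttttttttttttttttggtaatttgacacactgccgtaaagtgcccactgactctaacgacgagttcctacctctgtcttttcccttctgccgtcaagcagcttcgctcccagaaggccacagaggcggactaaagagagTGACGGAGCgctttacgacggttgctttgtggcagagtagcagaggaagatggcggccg
Psme4: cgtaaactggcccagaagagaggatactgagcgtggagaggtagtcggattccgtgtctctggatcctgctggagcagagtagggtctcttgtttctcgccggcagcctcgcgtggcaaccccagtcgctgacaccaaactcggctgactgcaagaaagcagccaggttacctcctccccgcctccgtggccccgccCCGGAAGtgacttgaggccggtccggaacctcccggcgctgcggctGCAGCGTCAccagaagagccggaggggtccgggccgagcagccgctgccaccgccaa
In Psmc2 the capitals mark CCGGAAG, read from the opposite strand, and CCAAT. In Psmb6 they mark TGACNNNGC. In Psme4 they mark CCGGAAG, and TGACNNNGC read from the opposite strand. Of the 49 genes, 41 have a promoter in the table, and the share with CCGGAAG was 34.1% (14 of 41), against 9.12% of the promoters of all 27025 genes. Psmc3ip, matched by name only, is among the 14. CCAAT was in 36.6%, against 37.9% of all genes, TGACNNNGC in 14.6% against 12.5%, and the Nrf1 motif in 4.88% (Psma2 and Psmg1) against 0.977%. TGACGTCA was in 0 of the 41 promoters, against 1.88% of all genes. The motifs were searched as separate strings, and genes of the 19S particle with CCGGAAG include Psmd2, Psmd6, Psmd11, Psmd12 and Psmd13. These are matches of letters in a fixed window, and no binding was measured.

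**Figure D2:**
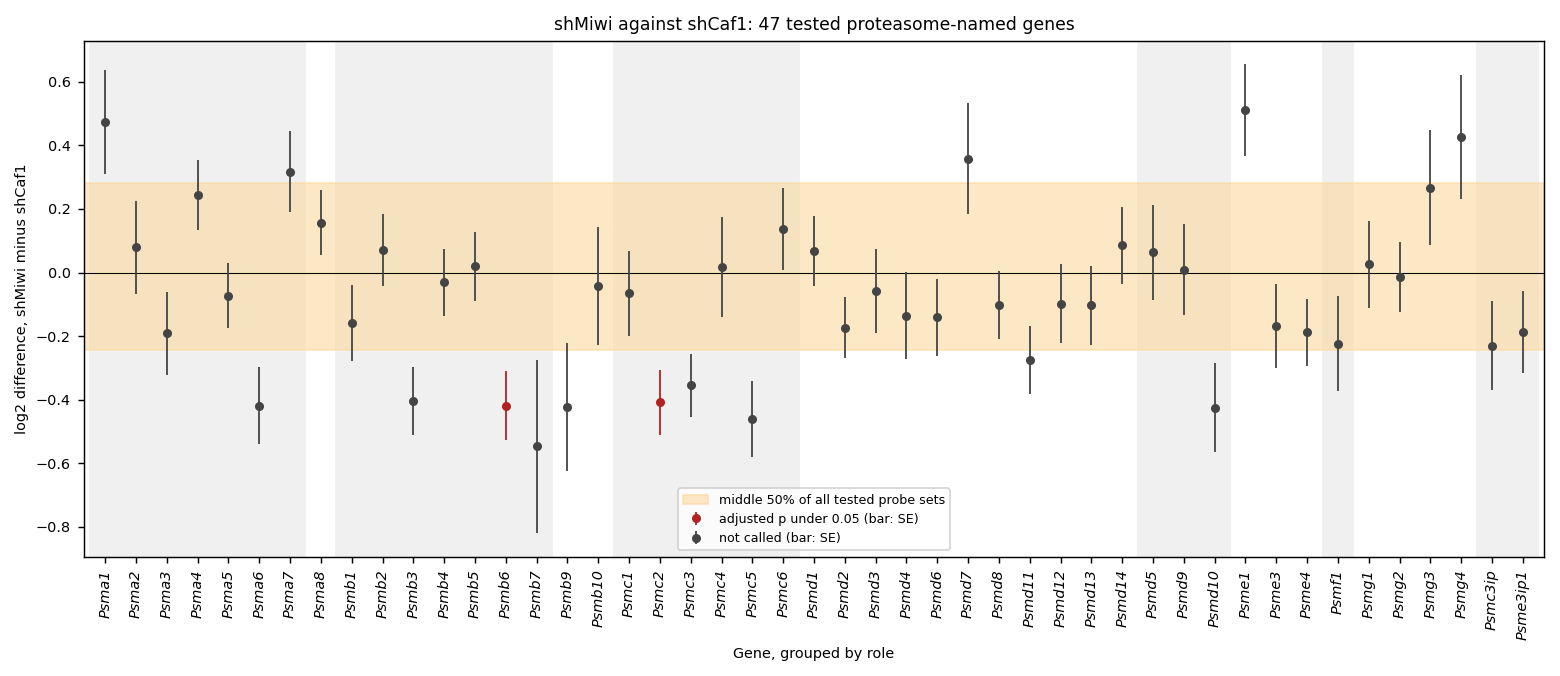
Log2 difference, shMiwi minus shCaf1, for the 47 tested genes on the deposited scale, with the standard error as bars, genes called at an adjusted p under 0.05 in red and the middle 50% of all tested probe sets as a band. Points lie between -0.55 and 0.51, and the 2 called genes, Psmc2 and Psmb6, lie at -0.41 and -0.42 (-0.01 and -0.02 on the scale of the hybridization controls).

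Several genes fell just short of the threshold between the hairpins. The 19S ATPase Psmc5 had signals of 3075 and 2689 in shMiwi and 3897 and 4027 in shCaf1 spermatids (log2 difference -0.46, adjusted p = 0.0516 in limma). Psmb3, a beta ring subunit without a catalytic site, had 3747 and 3943 in shMiwi and 5124 and 5064 in shCaf1 spermatids (-0.40, adjusted p = 0.0548), and its other probe set gave -0.01. Psme1, a subunit of the PA28 activator, had 939 and 865 in shMiwi and 642 and 613 in shCaf1 spermatids, the other way (0.51, adjusted p = 0.0651). Within each of these genes the shMiwi and shCaf1 arrays do not overlap, as held for 13 of the 47 genes below and 8 above, against 25.3% and 28.8% of all tested probe sets. The ATPase Psmc3 (-0.35, adjusted p = 0.0654) and the alpha ring subunit Psma6 (-0.42, adjusted p = 0.0693) also lay lower in shMiwi without passing. At the high end of their roles between the hairpins were Psma1 of the alpha ring (0.47, adjusted p = 0.115), the lid subunit Psmd7 (0.36, adjusted p = 0.25) and the ATPase Psmc6 (0.14, adjusted p = 0.569), none of them called on the deposited scale. On the hybridization scale, where 26.4% of all probe sets were called, Psma1 (0.87), Psmd7 (0.75), Psmc6 (0.53) and Psme1 (0.90) were called higher. There Psmc5 (-0.06), Psmb3 (-0.01), Psmc3 (0.04) and Psma6 (-0.02) were not called.

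Psma8 and Psme4, of the proteasome form of male germ cells, were not called between the hairpins by the probe sets that stand for them. On the hybridization scale 26.4% of all probe sets were called. There Psma8 (0.55, adjusted p = 0.0214 in limma) and Psma7 (0.71, adjusted p = 0.00841) were called higher in shMiwi. The values that follow are on the deposited scale. Psma8 had signals of 7166 and 7601 in shMiwi and 6504 and 6733 in shCaf1 spermatids, a log2 difference of 0.16 (95% interval -0.08 to 0.39, adjusted p = 0.391 in limma). Psma7, the subunit it replaces, had 2935 and 3182 in shMiwi and 2656 and 2259 in shCaf1 spermatids, a difference of 0.32 (0.03 to 0.61 before adjustment, adjusted p = 0.167). Psme4 had 16189 and 13896 in shMiwi and 16956 and 17230 in shCaf1 spermatids, a difference of -0.19 (-0.43 to 0.05, adjusted p = 0.314). A further probe set of Psme4 gave 2800 and 3519 in shMiwi and 2172 and 1775 in shCaf1 spermatids and was called higher (0.67, adjusted p = 0.0377), and the third gave -0.003 (adjusted p = 0.99). The probe sets of this gene thus disagree on whether it differs between the hairpins.

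The other enzymes and regulators were not called between the hairpins. Psmb5, with the chymotrypsin-like site, had 5513 and 5848 in shMiwi and 5853 and 5362 in shCaf1 spermatids (0.02, 95% interval -0.23 to 0.27). Psmb7, with the trypsin-like site, had 3266 and 1692 in shMiwi and 4046 and 2931 in shCaf1 spermatids, and its shMiwi arrays lay far enough apart that the interval ran from -1.16 to 0.07. Psmd14, the deubiquitinase of the 19S lid, differed by 0.09 (-0.19 to 0.36) and Psmd4, a ubiquitin receptor, by -0.14 (-0.45 to 0.18). Psme3, the nuclear activator subunit, differed by -0.17 (-0.46 to 0.13), and Psmf1, an inhibitor of the core in vitro, by -0.22 (adjusted p = 0.403). The chaperones of 19S assembly Psmd10 (-0.42, adjusted p = 0.105) and Psmd9 (0.01, adjusted p = 0.977) and the chaperone of core assembly Psmg1 (0.03, adjusted p = 0.936) were not called either.

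Some markers of the labelled stage and of other cells were called between the hairpin groups. Over all tested probe sets, 3.52% were lower in shMiwi and 3.81% were higher. Of 10 elongating spermatid markers, 8 were lower in shMiwi (median log2 difference -0.59), all but Spem1 and Tnp2. Of 8 round spermatid markers, 2 were lower, Acrv1 and Spaca3 (median -0.29). Of the markers of somatic cells, 1 of 7 for Sertoli cells was higher in shMiwi (Wt1, 0.77, list median 0.10), 1 of 4 for Leydig cells (Cyp11a1, 0.51, list median 0.16), 1 of 8 for macrophages (Mrc1, 0.69, list median 0.002) and 2 of 5 for peritubular myoid cells (Myh11 and Tagln, 0.93 and 0.90, list median 0.90), and 0 markers of these lists were lower. Of the 8 pachytene spermatocyte, 7 spermatogonium and 5 endothelial markers tested, 0 were called either way. The summed signal of 4 Leydig markers was 23954 and 23386 in shMiwi, 19498 and 19853 in shCaf1, and 3444 and 5413 in control spermatids, and that of 8 macrophage markers 6096 and 6142 in shMiwi, 4955 and 4976 in shCaf1, and 3249 and 3819 in control spermatids. The part of these shifts in the differences of Psmc2 and Psmb6 was not tested.

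Against control, proteasome genes lay on both sides. In shMiwi spermatids 8 of 47 were called higher (Psma3, Psma5, Psma8, Psmc2, Psmd6, Psmd14, Psme4 and Psmg2) and 3 were called lower (Psmb2, Psmb4 and Psmb7), where 8.76% and 3.04% of all tested probe sets were called. In shCaf1 spermatids 7 were called higher, the same genes without Psmg2, and 2 were called lower, Psmb2 and Psmb4, where 7.69% and 2.2% of all probe sets were called. Both comparisons use the same 2 control arrays, so they do not support each other. The median log2 difference was 0.74 in shMiwi and 0.84 in shCaf1, against -0.20 and -0.25 over all tested probe sets. The probe set of each gene was the one with the highest mean on the shRNA arrays, which favours a rise against control. With the probe set brightest over all 6 arrays, Psmd6 gave -1.59 in shMiwi and -1.65 in shCaf1 and Psma5 -3.97 and -4.12.

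Scaling decides how many genes are called and in which direction. On the deposited scale the split of higher and lower was 8 and 3 in shMiwi and 7 and 2 in shCaf1. With quantile normalization, which raises the median of all probe sets against control by 0.69 in shMiwi and 0.74 in shCaf1, it was 4 and 0 in both, where 7.36% and 6.01% of all probe sets were called. With median centring, which raises it by 1.58 and 1.57, it was 21 and 0 in shMiwi and 24 and 0 in shCaf1, where 30.6% and 29.1% of all probe sets were called. On the scale of the hybridization controls, which raises it by 3.78 and 3.40, it was 45 and 0 in both, where 82.9% and 79% of all probe sets were called. Set against the median of all probe sets, the median of the proteasome genes lay at 0.94 in shMiwi and 1.09 in shCaf1 on the deposited scale, at 2.0 and 1.89 on the hybridization scale and at -0.33 and -0.26 after quantile normalization, so the direction for the family as a whole is not settled. By rank within each array, which needs no scale, 17 of the 47 genes lay higher on all 4 shRNA arrays than on both control arrays and 13 lay lower, against 35.6% and 26.7% of all tested probe sets. By the deposited signals, 19 lay higher on all shRNA arrays and 12 lower, against 27.8% and 38.4%. At least 2-fold apart with no overlap, 18 genes were higher and 6 lower in shMiwi, against 26.6% and 35.7% of all tested probe sets, and 17 were higher and 7 lower in shCaf1, against 25.6% and 35.6%.

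**Figure D3:**
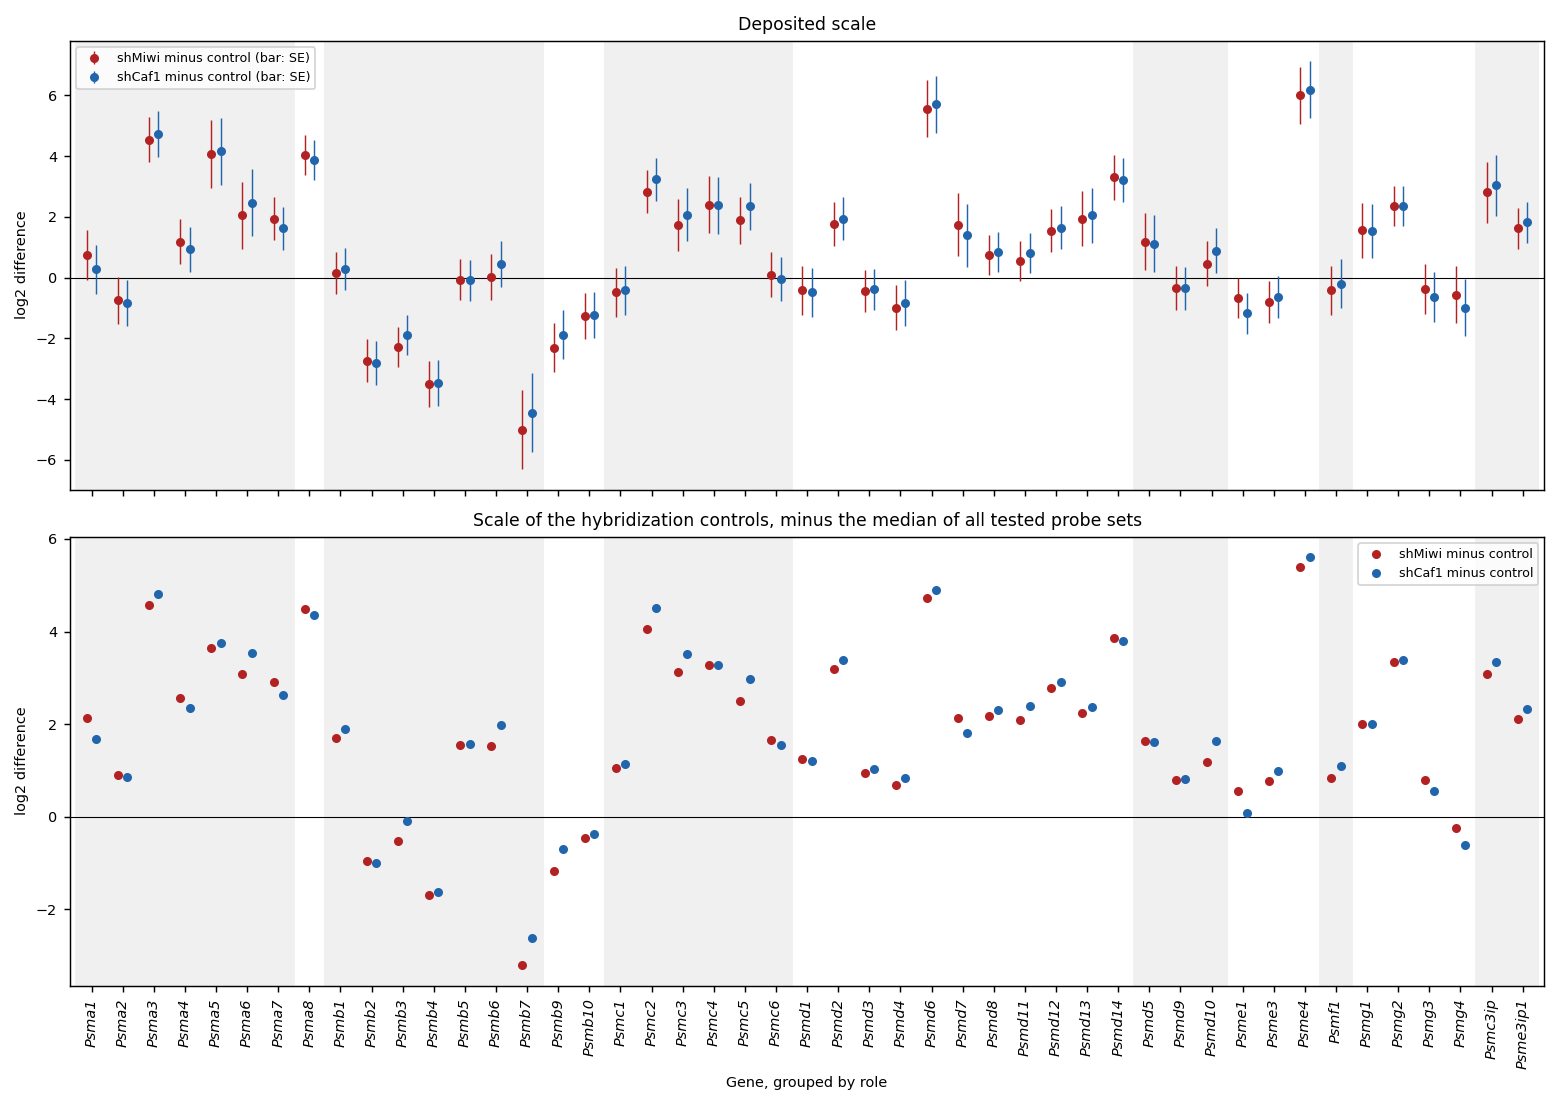
Log2 differences against control for the 47 tested genes, shMiwi in red and shCaf1 in blue, on the deposited scale with standard errors (top) and on the scale of the hybridization controls after subtracting the median of all tested probe sets (bottom). Psme4, Psmd6, Psma3, Psma5 and Psma8 lie high in both panels, and Psmb2, Psmb4 and Psmb7 lie low in both, although without that subtraction they turn positive on the hybridization scale.

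Psma8, Psme4 and several 19S and alpha ring genes made up the higher side, with Psmg2 in shMiwi. Markers of some other germ cell stages were called higher with them, where 8.76% and 7.69% of all tested probe sets were called higher. They were 6 of 8 pachytene spermatocyte markers in both comparisons (medians 4.37 in shMiwi and 4.15 in shCaf1) and 4 of 8 round spermatid markers (3.66 and 3.96). Of 7 spermatogonium markers 1 was called higher in each comparison, with list medians below 0 (-0.61 and -0.93). Of 10 elongating spermatid markers 1 was called higher in each comparison (medians 2.20 and 2.77). Of 4 Leydig cell markers, 3 were called higher in shMiwi and 2 in shCaf1. The summed signal of the pachytene list was 75575 and 77389 in shMiwi, 75020 and 82154 in shCaf1, and 2097 and 115991 in control spermatids, and that of the round spermatid list 48706 and 49581 in shMiwi, 58640 and 59875 in shCaf1, and 3088 and 29567 in control spermatids. The part of these markers in the differences of the proteasome genes was not tested.

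Psme4 had signals of 16189 and 13896 in shMiwi, 16956 and 17230 in shCaf1, and 43.4 and 901 in control spermatids. All 4 shRNA arrays lay above both control arrays, with log2 differences of 6.01 in shMiwi (SE 0.94, adjusted p = 0.00701 in limma) and 6.20 in shCaf1 (adjusted p = 0.00781). A further probe set of Psme4 was called too, with 11237 and 11327 in shMiwi, 11258 and 11345 in shCaf1, and 62.5 and 563 in control spermatids, and the third was not (2.35 in shMiwi and 1.68 in shCaf1). Psma8 had signals of 7166 and 7601 in shMiwi, 6504 and 6733 in shCaf1, and 343 and 554 in control spermatids. The control arrays differed here by 0.67 on the log2 scale, and the differences were 4.03 in shMiwi (adjusted p = 0.00776) and 3.87 in shCaf1 (adjusted p = 0.00974). It has a single probe set past the filter, so there is no second measure of it.

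Psma7, whose place Psma8 takes, had 2935 and 3182 in shMiwi, 2656 and 2259 in shCaf1, and 973 and 632 in control spermatids, with differences of 1.94 (adjusted p = 0.0974 in limma) and 1.62 (adjusted p = 0.15). Its other probe set pointed the other way, with 2096 and 2205 in shMiwi, 1871 and 1802 in shCaf1, and 18371 and 5910 in control spermatids. The gene was not called by the probe set used here, and the probe sets differ in sign.

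Of the 7 alpha ring genes Psma1 to Psma7, 2 were called higher and 0 lower in each comparison, with a median of 1.94 in shMiwi and 1.62 in shCaf1. Psma3 had 6147 and 7884 in shMiwi, 8039 and 7857 in shCaf1, and 178 and 441 in control spermatids (4.55 in shMiwi, adjusted p = 0.00828, and 4.74 in shCaf1, adjusted p = 0.00883, limma). Psma2 was the lowest of the ring, at -0.75 in shMiwi and -0.83 in shCaf1, without a call. Psma5 had 7347 and 7643 in shMiwi, 8133 and 7638 in shCaf1, and 48.7 and 3013 in control spermatids, and was called higher (4.08 and 4.16, adjusted p = 0.0452 and 0.0468). Another of its probe sets, with 3397 and 3617 in shMiwi, 3447 and 2912 in shCaf1, and 117754 and 25983 in control spermatids, was called lower (-3.97 and -4.12, adjusted p = 0.0158 and 0.0152). Psma5 thus has no settled direction against control.

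The beta ring held all the genes called lower. Of the 7 genes Psmb1 to Psmb7, 3 were called lower in shMiwi and 2 in shCaf1, with medians of -2.29 and -1.88. On the hybridization scale the differences of all 7 were positive, and 5 were called higher in each comparison. On that scale 82.9% of all probe sets were called in shMiwi and 79% in shCaf1. Psmb4, a subunit without a catalytic site, had 8765 and 9916 in shMiwi, 9617 and 9431 in shCaf1, and 159286 and 69770 in control spermatids. Its differences were -3.50 in shMiwi (adjusted p = 0.0194 in limma) and -3.47 in shCaf1 (adjusted p = 0.0222), and its other probe set gave 1.34 and 1.55 without a call. Psmb2, also without a catalytic site, had 4063 and 3897 in shMiwi, 3949 and 3633 in shCaf1, and 43567 and 16303 in control spermatids (-2.74 and -2.81, adjusted p = 0.0375 and 0.0373). Psmb7 had 3266 and 1692 in shMiwi, 4046 and 2931 in shCaf1, and 154896 and 37145 in control spermatids, and was the lowest of all the tested genes in both comparisons (-5.00, adjusted p = 0.0381, and -4.45, adjusted p = 0.0599).

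Set against the median of all probe sets on the hybridization scale, Psmb2, Psmb4 and Psmb7 lay at -0.96, -1.69 and -3.20 in shMiwi and at -1.0, -1.63 and -2.62 in shCaf1, below that median although positive in themselves. Psmb1, the highest of the ring in shMiwi, had 4288 and 4990.3 in shMiwi, 4941 and 5397 in shCaf1, and 3738 and 4699 in control spermatids (0.14 and 0.30, without a call), and its other probe sets lay below 0. The other active-site subunits of the ring were not called. Psmb5 had 5289 and 6710 in control spermatids and differed by -0.07 in shMiwi and -0.09 in shCaf1, and Psmb6 differed by 0.03 and 0.45, with control arrays at 2563 and 10906 on either side of the shRNA arrays.

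On the deposited scale, the interferon-inducible beta subunits Psmb9 and Psmb10 lay lower on the shRNA arrays without passing the test. Psmb9 had 183 and 238 in shMiwi, 297 and 274 in shCaf1, and 1305 and 918 in control spermatids (-2.31 in shMiwi, adjusted p = 0.0887, and -1.88 in shCaf1, adjusted p = 0.146, limma). Psmb10 had 255 and 257 in shMiwi, 282 and 247 in shCaf1, and 700 and 584 in control spermatids (-1.27 and -1.23). On the hybridization scale, where 82.9% and 79% of all probe sets were called, both genes were called higher. Psmb9 lay there at 2.41 and 2.46 and Psmb10 at 3.12 and 2.79. Set against the median of all probe sets on that scale, Psmb9 lay at -1.17 and -0.69 and Psmb10 at -0.46 and -0.37. With median centring Psmb9 gave -0.72 and -0.32 and Psmb10 0.31 and 0.34, without a call. Beside them, the summed signal of 9 interferon response genes was 2182 and 2147 in shMiwi, 2323 and 1653 in shCaf1, and 5083 and 3584 in control spermatids, and that of 8 endothelial markers was 852 and 775 in shMiwi, 740 and 811 in shCaf1, and 6597 and 2740 in control spermatids. By rank within each array the interferon genes went the other way, with median percentiles of 44.13 and 43.17 in control spermatids. These percentiles were 49.04 and 52.15 in shMiwi and 56.73 and 52.24 in shCaf1 spermatids. Median percentiles of the endothelial markers were 53.83 and 65.16 in control, 52.06 and 55.11 in shMiwi, and 46.30 and 48.94 in shCaf1. Median array signals were 305.1 and 215.7 on the control arrays and 70.73 to 79.88 on the shRNA arrays. The part of these lists in the values of Psmb9 and Psmb10 was not tested. Psme1, inducible by interferon as well, had 1344 and 1545 in control spermatids and differed by -0.67 in shMiwi and -1.18 in shCaf1 without a call, and the probe set shared by Psme2 and Psme2b had 664 and 706 in shMiwi, 569 and 572 in shCaf1, and 1755 and 1637 in control spermatids.

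In the 19S particle, Psmc2 was the only ATPase of 6 to be called, at 2.83 in shMiwi (adjusted p = 0.0336 in limma) and 3.23 in shCaf1 (adjusted p = 0.0226), and its other probe set was called in the same direction (3.15 and 3.42). Psmc1 was the lowest ATPase, with 1832 and 1938 in shMiwi, 1811 and 2146 in shCaf1, and 6535 and 1066 in control spermatids. Of the 11 non-ATPase subunits, 2 were called higher and 0 lower in each comparison. Psmd6, a lid subunit, had 7698 and 8636 in shMiwi, 8258 and 9794 in shCaf1, and 31.6 and 612 in control spermatids (5.56, adjusted p = 0.00859, and 5.70, adjusted p = 0.00922). Its other probe set, with 36332 and 12685 in control spermatids, gave -1.59 and -1.65 without a call. Psmd14 had 5493 and 5891 in shMiwi, 5863 and 4900 in shCaf1, and 348 and 895 in control spermatids (3.31 and 3.22), all shRNA arrays above both control arrays.

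Psmd4 was the lowest non-ATPase subunit, at -0.98 in shMiwi and -0.85 in shCaf1 without a call, and its other probe set gave 1.40 and 1.19. Psmd11, a lid subunit, gave 0.55 and 0.82 by the probe set used here, while another was called lower, with 1209 and 767 in shMiwi, 1117 and 1066 in shCaf1, and 21786 and 33756 in control spermatids. Among the chaperones of core assembly, Psmg2 had 3956 and 4165 in shMiwi, 4035 and 4165 in shCaf1, and 1083 and 564 in control spermatids (2.35, adjusted p = 0.0483, and 2.37, adjusted p = 0.0515). A further probe set of Psmg2 was called higher in both comparisons (4.61 and 4.16). Psmg4 was the lowest of these chaperones (-0.56 and -0.99), and Psmg1 gave 1.55 and 1.53 without a call. The chaperones of 19S assembly Psmd5 (1.18 and 1.12), Psmd9 (-0.34 and -0.35) and Psmd10 (0.46 and 0.89) were not called, nor were Psme3 (-0.81 and -0.64) and Psmf1 (-0.42 and -0.20). The genes matched by name only, Psmc3ip (2.81 and 3.04) and Psme3ip1 (1.63 and 1.82), were not called.

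The control replicates carry these calls unequally. A fit without a control replicate rests on 1 control array, for which the spread and the weight are assumed, so that its calls have no replicate check in the control group. Without control replicate 1, on which elongating spermatid markers are nearly absent, 5 genes were called in shMiwi and 4 in shCaf1, where 4.88% and 4.06% of all probe sets were called. Psme4, Psmd6, Psma3 and Psma8 are the genes called higher in that fit. Psmb4 was the gene called lower, in shMiwi. Psma5 then lay at 1.31 and 1.38, and Psmd14, Psmc2, Psmb2 and Psmb7 were not called either. Without control replicate 2, 16 genes were called in shMiwi and 15 in shCaf1, where 11.2% and 11.1% of all probe sets were called, with Psma6 at 4.46 and 4.88 among those gained and with Psmb7 and Psmg2 lost in shMiwi.

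**Figure D4:**
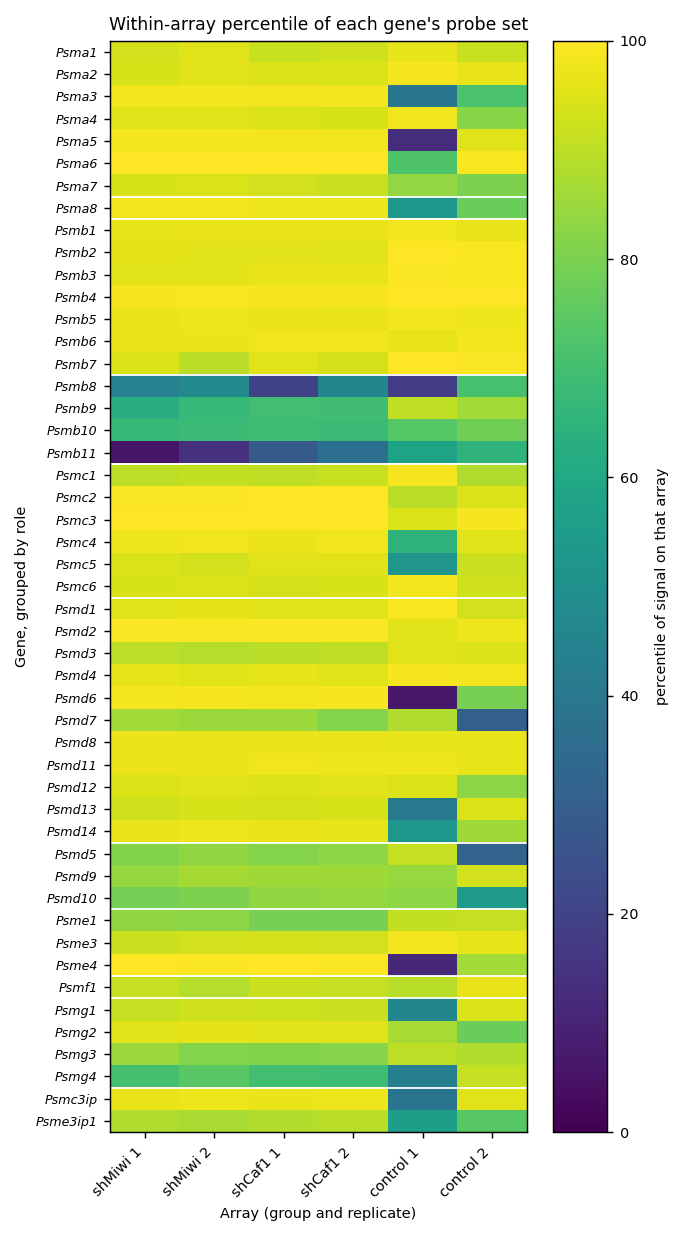
Rank of each gene's probe set within each array, as a percentile of the 45037 probe sets on it, with genes in rows grouped by role and arrays in columns. A row is read across the arrays: rows such as Psme4, Psmd6, Psma3 and Psma8 are lower on both control arrays than on the 4 shRNA arrays. Of the 47 tested genes, 17 rank higher on all shRNA arrays and 13 rank lower, near the 35.6% and 26.7% of all tested probe sets.

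Probe sets of the same gene often gave opposite signs against control. Of 20 genes with 2 or more tested probe sets, 12 had both signs in shMiwi and 13 in shCaf1. Among the 14 genes with 2 or more probe sets above a mean log2 signal of 10 on the shRNA arrays, 8 had both signs in each comparison, namely Psma5, Psma7, Psmb4, Psmc4, Psmd4, Psmd6, Psmd11 and Psmd13. Psma5 was the only gene called in both directions. Psme4, Psmc2 and Psmg2 were called higher by 2 probe sets each, in shMiwi, and Psmc3ip had 2 probe sets of the same sign (2.81 and 2.83) without a call.

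**Figure D5:**
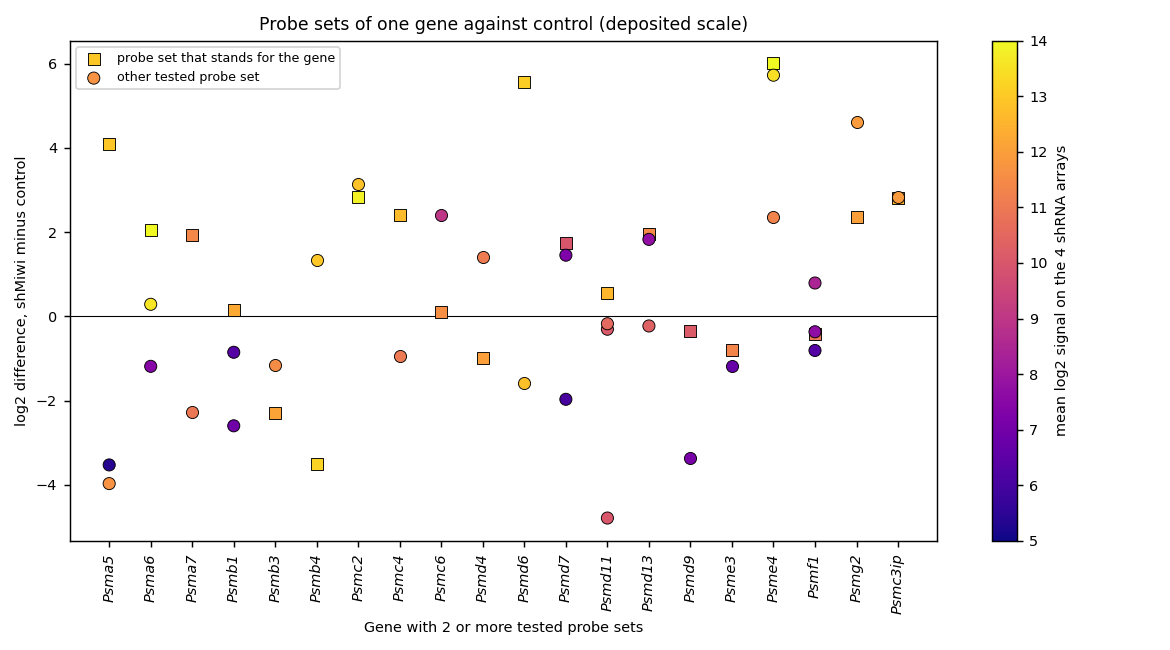
Log2 difference, shMiwi minus control, of every tested probe set of the 20 genes with 2 or more, on the deposited scale, with squares for the probe set that stands for the gene and colour for the mean log2 signal on the shRNA arrays. For 12 of the 20 genes the probe sets lie on both sides of 0, with Psma5 at 4.08 and -3.97.

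Other genes of the ubiquitin and proteasome pathway were read from lists chosen by function. Their counts stand against 3.81% of all tested probe sets higher and 3.52% lower in shMiwi than in shCaf1, 8.76% higher and 3.04% lower in shMiwi than in control, and 7.69% higher and 2.2% lower in shCaf1 than in control. Of 12 tested proteasome partners, 1 was higher in shMiwi than in shCaf1 and 0 were lower. This was Zfand5, a proteasome-binding protein, with 3001 and 3384 in shMiwi, 2115 and 2208 in shCaf1, and 36956 and 18268 in control spermatids (0.56, adjusted p = 0.0324 in limma). Against control, Zfand5 was called lower (-3.02 in shMiwi and -3.58 in shCaf1) and Uchl5, a deubiquitinase of the 19S particle, higher (4.91 and 4.55), 1 of 12 each way. Sem1, a small lid subunit, and Pomp, the maturation protein of the core, were not called in any comparison. Sem1 had 9427 and 9159 in shMiwi, 9925 and 10014 in shCaf1, and 1878 and 6591 in control spermatids.

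Of 12 tested shuttle and unfolding factors, 1 was higher and 1 lower in shMiwi than in shCaf1. Ubqlnl, a ubiquilin-like gene, had 891 and 898 in shMiwi, 2923 and 2906 in shCaf1, and 117 and 40.8 in control spermatids (-1.69, adjusted p = 0.000483 in limma). Ubqln1, which carries ubiquitinated proteins to the proteasome, was higher (0.49, adjusted p = 0.0425). Against control, Vcp, the ATPase that extracts ubiquitinated proteins, and Ubqlnl were called higher, 2 of 12 in both comparisons and 0 lower. Vcp had 15714 and 13775 in shMiwi, 14639 and 15659 in shCaf1, and 1094 and 1418 in control spermatids. Of the list of ubiquitin genes and activating enzymes only Uba6 had a probe set of a single gene, and it was called higher in all 3 comparisons (0.50 against shCaf1, and 3.61 in shMiwi and 3.10 in shCaf1 against control).

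Of 14 tested regulators of proteasome and spermatid genes, 3 were higher in shMiwi than in shCaf1 and 0 lower. They were Mybl1 (0.80, adjusted p = 0.0296 in limma), a transcription factor of meiosis, Mafg (0.85, adjusted p = 0.0406), and Nfe2l2 (0.57, adjusted p = 0.0499), its partner at antioxidant response elements. Nfe2l1, which in mammals raises proteasome genes when the proteasome is inhibited, had 1133 and 1246 in shMiwi, 1078 and 1188 in shCaf1, and 1991 and 889 in control spermatids, without a call in any comparison. Against control, Crem, a transcription factor of spermatids, and Ngly1, which processes Nfe2l1, were called higher in both groups, and Mybl1 in shMiwi (3.56), while in shCaf1 it lay at 2.76 (adjusted p = 0.0637). Ngly1 had 9961 and 10505 in shMiwi, 12759 and 14012 in shCaf1, and 60.4 and 884 in control spermatids.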

How the data were processed

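Total RNA of sorted elongating spermatids was extracted with Trizol, then amplified for 3' expression arrays of Affymetrix, as the labels' protocols state. The authors' deposited values are linear signal intensities for 45101 probe sets on 6 arrays, made with MAS5 per the submitters' processing notes; its version is not given in the sources used here, nor is a genome build. Every array has a 2% trimmed mean of 500 in these signals, which are not compared between probe sets, and only 2 arrays a group limit the precision.

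Intensities were taken to log2 after adding 16, which shrinks the fold changes of dim ones. After removal of 64 AFFX controls, the 27022 probe sets whose mean passed the 40th percentile were tested with limma 3.58.1 in R 4.3.3 (lmFit, eBayes with an intensity trend, Benjamini-Hochberg adjustment over all of them, calls at an adjusted p under 0.05). shMiwi and shCaf1 were compared on their 4 arrays (2 residual degrees of freedom). Comparisons with control used all 6 arrays (3 residual degrees of freedom) with array weights by group, 3.06 for shMiwi, 3.89 for shCaf1 and 0.084 for control, because control arrays varied more. Hybridization scaling used 18 spiked control probe sets, and the constant of 16 was added after it. Replicates are called biological by the labels, and the p-values measure the spread between these arrays only.

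Genes, lists, tests and the naming rule were chosen with earlier results of these data known. Named are all genes called between the hairpins, germ cell, catalytic, inducible, receptor, deubiquitinase, activator, inhibitor and chaperone members, the highest and lowest of each role against control, genes with probe sets called both ways and genes under the filter; other genes were named after their values were seen. Other constants, filters, scalings, variance models and probe set choices, a replicate block and fits without each array were tried.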

Additional observations from a re-analysis of the deposited data

How the results depend on the processing

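Between shMiwi and shCaf1, the 2 calls (limma, 47 genes tested) became 1 with an added constant of 1 and 4 with the filter at the 60th percentile. They became 0 with no filter, quantile normalization, median centring, no intensity trend, or all 6 arrays with a shared spread or weights by group. At an unadjusted p under 0.05 the fit as reported held 11 genes. Hybridization scaling gave 9, all higher in shMiwi and without Psmc2 and Psmb6, where 26.4% of all probe sets were called. Labels give only shared replicate numbers (correlation of replicate differences 0.18 between the hairpin groups), and with the replicate block 11 were called there (2 higher and 9 lower, Psmc5, Psmb3, Psme1, Psmc3 and Psma6 among them, with 20.2% of all probe sets called), 9 in shMiwi against control (13.7%) and 9 in shCaf1 against control (11.2%). In shMiwi against control the 11 calls became 4 with quantile normalization, 21 with median centring, 45 with hybridization scaling, 5 with no intensity trend and 24 by a 2-fold difference without overlap (26.6% of all probe sets higher, 35.7% lower), and 5 to 16 when an array was left out. In shCaf1 against control the 9 calls became 4, 24, 45, 5 and 24 (25.6% higher, 35.6% lower) by the same changes. With a shared spread without weights, 15 genes were called in shMiwi and 16 in shCaf1 against control. In those fits 43.2% and 41.5% of all probe sets were called. On the hybridization scale, Psmb7 turned to 0.38, Psmb2 to 2.62 and Psmb4 to 1.89 in shMiwi, and Psmb2 to 2.15 and Psmb4 to 1.52 in shCaf1, since that scaling lifts all probe sets. With the probe set brightest over all 6 arrays, Psmd6 turned to -1.59 in shMiwi and -1.65 in shCaf1 and Psma5 to -3.97 and -4.12. The cause of the other changes was not tested. No group holds 4 or more arrays, so no array could be tested as an outlier within its group.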
